A study of Mus musculus with 24 samples.

Results

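The liver holds its own large population of immune cells, and 40 genes that mark them were followed here: 5 of Kupffer cells, 9 of macrophages in general, 5 of monocytes and dendritic cells, 6 of neutrophils, 4 of antigen presentation, 4 of T cells, 3 of B cells and 4 of natural killer (NK) and other cytotoxic cells. The genes were taken by name from the array's annotation and stand on 64 probes, out of 56605 probes on the array. A probe was used if at least 6 of the 24 arrays read it well above background, which held for 55 of these probes. They measured 38 of the 40 genes, out of 23966 measured genes in all. Ngp and Cd8a were not measured by this rule. Where a gene had several such probes, the brightest stood for it.

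Each of the 24 arrays held liver RNA of 1 wild-type male C57Bl/6J mouse, 8 weeks old, and each of the 4 groups had 6 mice. One group was fasted for 24 hours, one was fed chow and drank 20% fructose for 24 hours, one was fed chow and drank 20% glucose for 24 hours, and the last was fed chow and drank tap water. All livers were taken at zeitgeber time 16, counted in hours from lights on, so the fed mice were sampled in their active phase. The study set fasting and each sugar against ordinary feeding. The whole liver was sampled, so fewer cells of a type and less RNA per cell cannot be told apart in any value below.

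Kupffer cells are the macrophages that live in the liver sinusoids, where they clear bacteria, lipoproteins, old red cells and debris from the portal blood by means of scavenger and complement receptors. Monocytes and neutrophils arrive with the blood, lymphocytes and NK cells patrol the sinusoids, and dendritic cells, B cells and some macrophages show peptides to CD4 T cells on class II molecules of the major histocompatibility complex. Several of the markers are receptors whose level changes with the state of the cell, and others are used mainly to count the cells.

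Between 32516 and 36272 probes per array were well above background, and pairs of arrays correlated at 0.970 to 0.995 across genes. Levels are given as normalised intensity, a linear scale on which each array's 75th percentile was set to the same value, 447. A level is not comparable between genes, because each probe binds its target with its own strength. Differences are log2 fold changes with their standard error from 1 limma fit over all 24 arrays, and a gene was called where the Benjamini-Hochberg adjusted p over all measured genes was under 0.05.

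Fasting moved the immune markers in both directions. Of the 38 measured genes, 5 rose in fasted livers against livers of mice on water, 10 fell and 23 were not called. The genes that rose were the scavenger and pattern receptors Marco, Vsig4, Cd163 and Cd14 and the antimicrobial peptide gene Camp. The genes that fell were all 4 class II genes, the integrins Itgam and Itgax, the chemokine receptor Ccr2, the B cell gene Ms4a1 and the cytotoxic cell genes Nkg7 and Gzmb. Fasting changed a large share of all liver genes: 42.6% of the 23966 were called, 20.7% higher and 21.9% lower, and the markers' share of 39.5% was close to that. Counts of called genes by cell class and by list below stand against these shares. The median log2 fold change was -0.020 over the 38 markers and 0.0059 over all genes. Each of the 15 called markers had the same sign on all 3 slides, which held 2 mice of each group each.

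**Figure D1:**
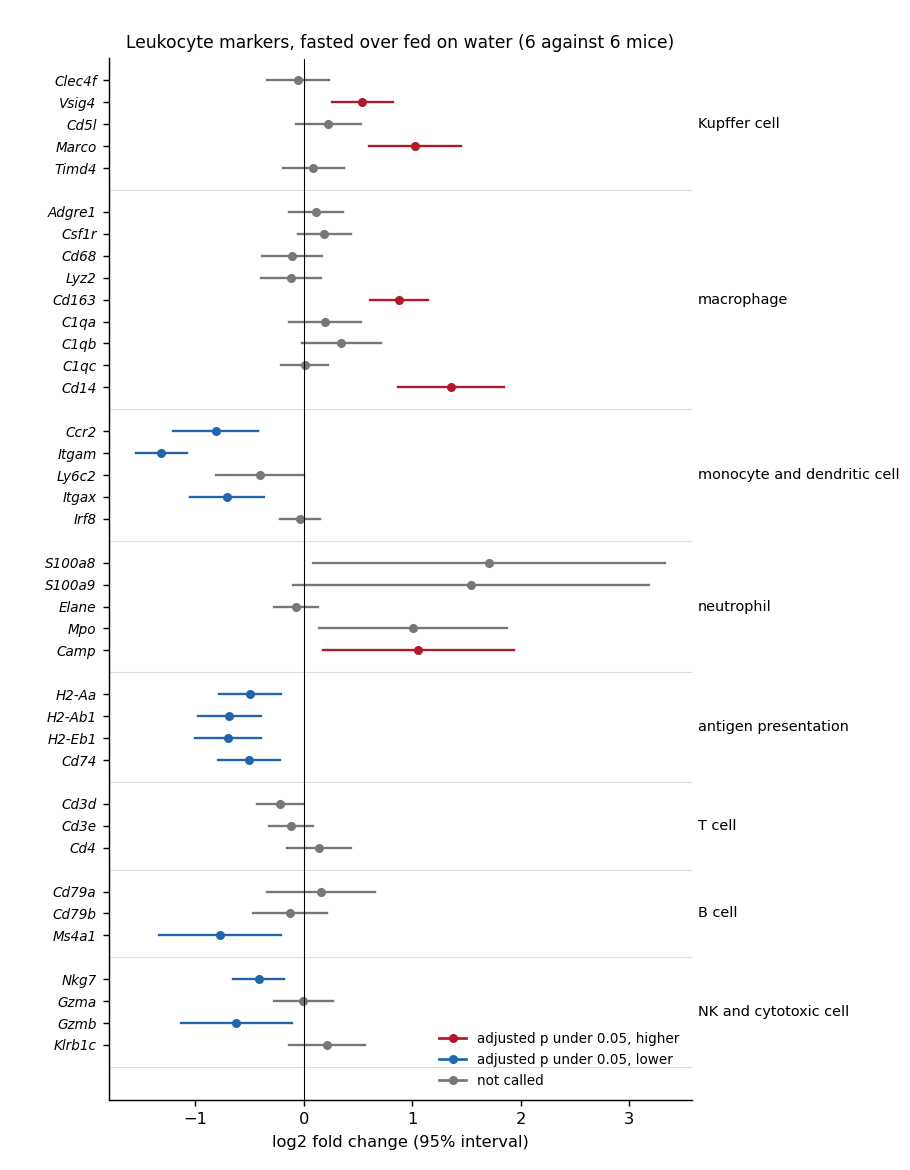
Log2 fold change of the 38 measured markers in fasted over water-fed livers (6 mice each), by cell class, with 95% intervals of the limma fit. Red points were called higher (5 genes), blue points lower (10 genes) and grey points were not called (23 genes). The 4 antigen presentation genes all lie left of 0, and the intervals of the neutrophil genes other than Elane are the widest.

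Among the Kupffer cell genes, the 2 receptors that bind bacteria and complement rose and the 3 others were not called. Marco, a scavenger receptor for bacteria and modified lipoproteins, had lowest, median and highest intensities of 3244, 5585 and 6599.9 in fasted livers, against 1525, 1860.2 and 2306 with fructose, 2089, 2669 and 4399 with glucose and 1642, 2477 and 3409 with water. Its log2 fold change of 1.02 ± 0.20 over water is a 2.03-fold difference (adjusted p = 0.000244). The lowest fasted mouse lay inside the range of the water group, and the other 5 lay above it. Vsig4, the complement receptor CRIg, which captures opsonised particles, measured 904, 1049 and 1362 in fasted livers, 593, 694 and 908 with fructose, 592, 813 and 977 with glucose and 628, 710.1 and 980.3 with water. It was 1.45-fold higher in fasting (0.54 ± 0.13 on the log2 scale, adjusted p = 0.00218), with 1 water-fed mouse above 2 of the fasted mice.

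The 3 remaining Kupffer cell genes had log2 fold changes between -0.053 and 0.23. For Clec4f, the galactose-binding lectin that in the mouse is made almost only by Kupffer cells, the 95% interval of the log2 fold change was -0.34 to 0.23 (adjusted p = 0.807). For Timd4, the phosphatidylserine receptor of long-lived resident Kupffer cells, it was -0.19 to 0.37 (adjusted p = 0.655), and for Cd5l, a secreted scavenger protein that Kupffer cells make, -0.071 to 0.53 (adjusted p = 0.223).

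Of the 9 general macrophage genes, Cd163 and Cd14 rose and 7 were not called. Cd163, the receptor that takes up haemoglobin bound to haptoglobin, measured 1707, 2057 and 2672 in fasted livers, against 977, 1079 and 1408 with fructose, 1099, 1425 and 1489.7 with glucose and 929, 1092 and 1495 with water. All 6 fasted mice lay above all 18 fed mice, and the difference from water was 1.84-fold (0.88 ± 0.13, adjusted p = 6.46e-06). Its second probe, at chr6:124270436-124270495 (mm9), also rose, by 1.34 on the log2 scale. Cd14, the co-receptor that passes bacterial lipopolysaccharide to the Toll-like receptor, measured 342, 461 and 1148 in fasted livers, against 151, 223 and 254 with fructose, 209, 252 and 271 with glucose and 199.5, 207 and 311 with water.

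All 6 fasted mice again lay above all 18 fed mice for Cd14, with a 2.56-fold difference from water (1.36 ± 0.24, adjusted p = 5.97e-05) and 1.43 on the log2 scale at its second probe. Fasted mice 2 and 5 had 1148 and 1091, and the other 4 had between 342 and 471. Cd163 and Cd14 are 2 of the 5 markers whose fasted and water groups do not overlap, the others being Itgam, Itgax and H2-Ab1, while 24.5% of all genes were separated in that way.

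The 7 macrophage genes that were not called had log2 fold changes from -0.12 (Lyz2, lysozyme) to 0.35 (C1qb, adjusted p = 0.12). They include the receptor for colony-stimulating factor 1, Csf1r (0.19 ± 0.12), the F4/80 antigen gene Adgre1 (0.11 ± 0.12), the lysosomal glycoprotein gene Cd68 (-0.11 ± 0.13) and the other chains of complement C1q, C1qa (0.20 ± 0.16) and C1qc (0.0093 ± 0.10). Cd68 had 3 kept probes that ran from -0.11 to 0.23, none of them called.

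**Figure D2:**
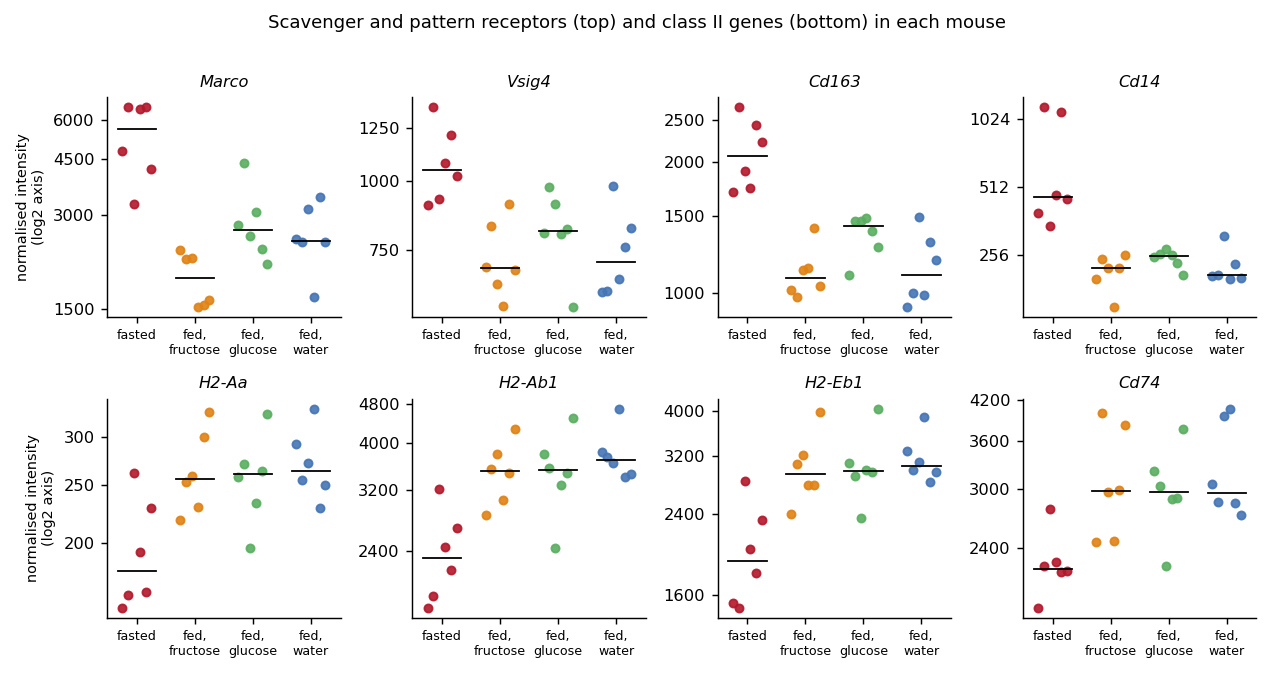
Normalised intensity (log2 axis) of 4 receptor genes (top row) and 4 class II genes (bottom row) in each mouse, for fasted, fructose, glucose and water groups, with bars at the group medians. All 6 fasted mice lie above the 18 fed mice for Cd163 and Cd14, and the fasted medians of the 4 class II genes lie below those of the 3 fed groups.

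A list of 22 other Kupffer cell and macrophage genes also split, with 5 called higher, 6 lower and a median of -0.15 against 0.0059 over all genes. Of all genes, 20.7% were called higher and 21.9% lower. Large differences were seen in Csf1, the growth factor that keeps macrophages alive, which fell by 1.79 on the log2 scale (adjusted p = 1.34e-11) and in Ccl6, a macrophage chemokine, which rose by 1.36 (adjusted p = 4.35e-07). Csf1 measured 196, 245 and 281 in fasted livers, against 699, 826 and 992 with water, while its receptor Csf1r was not called. Csf1 acts on macrophages, and which liver cells made it was not tested. Also called were Hmox1, haem oxygenase (0.79 ± 0.19), Clec1b (0.60 ± 0.071) and the efferocytosis receptor Mertk (0.30 ± 0.074), which rose, and Id3 (-1.34 ± 0.25), the ionised calcium-binding protein gene Aif1 (-1.09 ± 0.10), the scavenger receptor Msr1 (-0.70 ± 0.12), Ccl24 (-0.65 ± 0.14) and Ccl9 (-0.44 ± 0.13), which fell.

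The class II genes fell together. H2-Aa, H2-Ab1 and H2-Eb1 encode chains of the peptide-binding class II molecules, and Cd74 the invariant chain that guards them until they meet peptide in the endosome. H2-Ab1 measured 1837, 2321 and 3219.7 in fasted livers, against 2842, 3509.9 and 4273 with fructose, 2440.5, 3514 and 4505 with glucose and 3407, 3694 and 4708 with water, so that all 6 fasted mice lay below all 6 mice on water. Its log2 fold change was -0.69 ± 0.14 (adjusted p = 0.000322), and its 4 probes gave -0.63 to -0.74, each called.

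H2-Eb1 measured 1503, 1896 and 2823 in fasted livers, against 2391, 2919 and 3974 with fructose, 2352, 2974 and 4051 with glucose and 2818, 3044 and 3890.2 with water (-0.70 ± 0.15, adjusted p = 0.000484). H2-Aa measured 156, 179 and 261 in fasted livers, against 218, 256 and 329.9 with fructose, 196, 260.3 and 328 with glucose and 229, 263 and 334 with water (-0.50 ± 0.14, adjusted p = 0.0049). Cd74 measured 1919.9, 2224 and 2783 in fasted livers, against 2462, 2982 and 3993 with fructose, 2244, 2965 and 3762 with glucose and 2721, 2955 and 4062 with water (-0.51 ± 0.14, adjusted p = 0.00477). In each of these 3 genes fasted mouse 3 was the highest of its group and lay inside the water range, and the other 5 fasted mice lay below it.

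Genes that work with class II molecules were measured too. Of 12 measured genes from a list of antigen presentation and dendritic cell genes, 5 fell, 1 rose and the median was -0.25. Over all genes, 21.9% were called lower and 20.7% higher. Ciita, the co-activator that switches class II genes on, measured 45.5, 60.0 and 107 in fasted livers, against 119, 135 and 175 with water (-1.08 ± 0.17, adjusted p = 1.45e-05). The genes of the peptide exchange factor, H2-DMb1 (-0.74 ± 0.12) and H2-DMa (-0.45 ± 0.10), its inhibitor's chain H2-Ob (-0.42 ± 0.12) and the co-stimulator Cd86 (-0.34 ± 0.12) fell as well, while H2-Oa was not called (-0.62 ± 0.26, adjusted p = 0.0566). Clec9a, a receptor of cross-presenting dendritic cells, rose (0.38 ± 0.12, adjusted p = 0.0114), and Flt3, Batf3, Zbtb46, Siglech and Cd209a, which mark dendritic cells, were not called.

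Class II promoters carry a conserved module read by factors that recruit the Ciita protein, with an X box bound by the RFX complex and a Y box bound by NF-Y. Stretches upstream of the start are shown because the class II markers fell together. They are from the class II genes for which the RefSeq promoter table (GRCm38.p6) holds the letter pair. That set was chosen by the pair and not by the fall, and it includes H2-Oa, which was not called. Each stretch runs 5′ to 3′ on the gene's strand, with the X box letters GNAAC and the Y box letters TGATTGG in capitals.
H2-Aa (chr17:34287847-34287924, minus strand): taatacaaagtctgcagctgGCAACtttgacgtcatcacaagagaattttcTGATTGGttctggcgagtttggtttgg
H2-Eb1 (chr17:34305756-34305832, plus strand): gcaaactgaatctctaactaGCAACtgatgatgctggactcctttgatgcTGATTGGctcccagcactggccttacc
H2-DMb1 (chr17:34153077-34153154, plus strand): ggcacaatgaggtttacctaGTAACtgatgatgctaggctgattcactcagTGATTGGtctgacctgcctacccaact
H2-Oa (chr17:34092283-34092360, plus strand): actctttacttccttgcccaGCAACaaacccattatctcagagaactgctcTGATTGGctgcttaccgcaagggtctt
H2-Ob (chr17:34238798-34238872, plus strand): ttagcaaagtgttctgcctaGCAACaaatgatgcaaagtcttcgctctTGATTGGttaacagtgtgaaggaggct

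The first letters of the X and Y boxes lie 31 bases apart in H2-Aa, H2-DMb1 and H2-Oa, 30 in H2-Eb1 and 28 in H2-Ob, and the Y box starts 45 to 63 bases before the annotated start. The pair was searched on both strands with 25 to 35 bases from start to start, without overlap of the boxes, in windows of 250 bases before to 50 after the start. It was found in 106 of 32851 promoters, 0.323%, and the Y box letters alone in 7.82%. Both promoters of H2-DMa hold no such pair, and it stands in 2 of the 31 markers that have a promoter there, H2-Aa and H2-Eb1. H2-Ab1 and Cd74 were not searched here. The letters and the spacing were chosen with these sequences in view, so the match is a description of the promoters, including that of H2-Oa, which was not called.

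Among the monocyte and dendritic cell genes, 3 of 5 fell and none rose. Ccr2, the chemokine receptor that brings monocytes out of the marrow, measured 10.11, 17.1 and 23.7 in fasted livers, against 17.9, 22.3 and 28.1 with fructose, 21.8, 24.4 and 34.6 with glucose and 19.0, 30.3 and 40.6 with water (-0.81 ± 0.19, adjusted p = 0.00116). It lay near background, and 5 of the 6 fasted arrays were well above it. With normexp background correction the log2 fold change was -0.24 and was still called. That setting adds an offset of 50, which by itself shrinks the fold changes of dim probes. Itgax, the CD11c integrin of dendritic cells, measured 23.8, 35.01 and 41.5 in fasted livers, against 47.3, 57.1 and 72.2 with fructose, 40.4, 61.9 and 87.2 with glucose and 47.8, 53.1 and 64.5 with water (-0.70 ± 0.17, adjusted p = 0.00127). All fasted mice lay below all mice on water, but the second kept probe of Itgax was not called (-0.28, adjusted p = 0.456).

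Itgam, the CD11b integrin of monocytes, macrophages and neutrophils, had the lowest adjusted p of all markers at 1 of its probes. That probe, at chr7:135261755-135261814 (mm9), measured 683, 815 and 1156 in fasted livers, against 1815, 2172 and 2543 with fructose, 1983, 2485 and 2706 with glucose and 1727, 2194 and 2313 with water, and all 6 fasted mice lay below all 18 fed mice (-1.31 ± 0.11, adjusted p = 3.53e-09). The other probe, at chr7:135212140-135212199 (mm9), measured 29.9, 39.4 and 41.1 in fasted livers, against 27.0, 36.7 and 42.3 with water, a log2 difference of 0.10 with an adjusted p of 0.575. The fall of Itgam is therefore a fall at the brighter of its probes, and which transcript each probe reads was not tested. Ly6c2, the Ly6C antigen of inflammatory monocytes (-0.40 ± 0.20, adjusted p = 0.106), and the transcription factor gene Irf8 (-0.033 ± 0.089, adjusted p = 0.811) were not called.

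Of the 5 measured neutrophil genes, 1 rose and 4 were not called, and all but Elane varied widely among the fasted mice. Camp, the cathelicidin peptide of secondary granules, rose by 1.06 ± 0.42 (adjusted p = 0.0492). Its call was lost in 20 of the 24 settings that left out 1 mouse, with log2 fold changes of 0.70 without fasted mouse 2 (adjusted p = 0.149) and 0.69 without fasted mouse 4 (adjusted p = 0.152). S100a8 and S100a9, the chains of calprotectin, had log2 fold changes of 1.71 ± 0.78 (adjusted p = 0.0854) and 1.54 ± 0.79 (adjusted p = 0.126), and Mpo, myeloperoxidase, one of 1.01 ± 0.42 (adjusted p = 0.0557), and none of these 3 was called. Elane, neutrophil elastase, was at -0.073 ± 0.097 (adjusted p = 0.602).

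The wide errors came from single mice. S100a8 measured 1293 and 1040.0 in fasted mice 2 and 4, 164 and 97.5 in fasted mice 5 and 1, and 39.4 and 11.9 in fasted mice 3 and 6, against 23.1 to 46.6 with fructose, 26.3 to 90.2 with glucose and 31.6 to 75.8 with water. S100a9 measured 4838 and 4378 in fasted mice 2 and 4 and 44.3 in fasted mouse 6, the lowest of the 24, against 106 to 209.8 with fructose, 113 to 401 with glucose and 129.8 to 301 with water. Fasted mice 2 and 4 were far above every fed mouse for both genes, and fasted mouse 6 was below every fed mouse.

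The same mice stood out for the granule proteins. Camp measured 559.9 and 554 in fasted mice 4 and 2, 56.2 to 559.9 over the fasted group, 58.1 to 99.4 with fructose, 63.2 to 82.3 with glucose and 55.7 to 103 with water. Mpo measured 204 and 84.0 in fasted mice 2 and 4, 16.8 to 204 over the fasted group, 15.5 to 24.4 with fructose, 15.95 to 34.2 with glucose and 15.9 to 25.4 with water. Ngp, the neutrophilic granule protein gene that was not measured by the rule, was well above background on 2 arrays, those of fasted mice 2 and 4, at 89.8 and 83.2, while the 18 fed arrays read 1.92 to 5.43 below that limit.

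Elane did not follow them: it measured 462, 531 and 642 in fasted livers, 601, 769.7 and 858 with fructose, 640.1, 683 and 872 with glucose and 511, 568 and 647 with water, and fasted mouse 2 ranked 12 and fasted mouse 4 ranked 20 of 24. Without fasted mice 2 and 4, an alternative added after the data were seen, no neutrophil marker was called by limma, the lowest adjusted p among them was 0.398 (Elane), and the log2 fold change of Camp was 0.15 (adjusted p = 0.625). Without fasted mouse 6, in contrast, S100a8, S100a9 and Mpo were called as well and the markers called higher numbered 8.

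**Figure D3:**
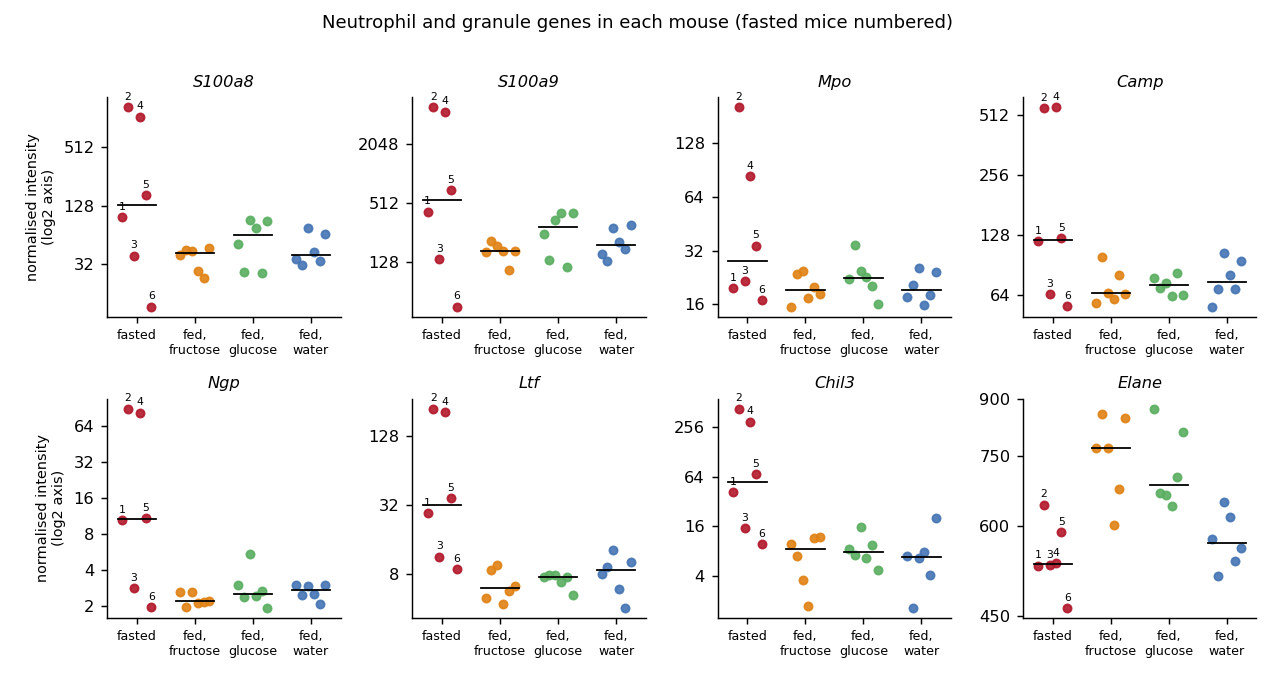
Normalised intensity (log2 axis) of 8 neutrophil and granule genes in each mouse, with the fasted mice numbered and bars at the group medians. Fasted mice 2 and 4 are the highest of all 24 in every panel except that of Elane, fasted mice 5 and 1 lie below them, and fasted mice 3 and 6 lie low, in most panels at the level of the fed mice.

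A further 9 neutrophil and granule genes were measured, out of 12 listed, and 3 rose and 1 fell, where 20.7% of all genes were called higher and 21.9% lower. Chil3, the lectin Ym1, measured 9.70, 53.2 and 427 in fasted livers, against 1.65, 6.82 and 20.3 with water (3.34 ± 0.77, adjusted p = 0.00112). Ltf, lactoferrin of the secondary granules, measured 8.80, 31.9 and 223 in fasted livers, against 4.07, 8.61 and 12.9 with water (2.38 ± 0.59, adjusted p = 0.0021), and Retnlg, a resistin-like protein of mouse neutrophils, 5.93, 33.5 and 358 in fasted livers, against 3.93, 9.01 and 14.6 with water (2.14 ± 0.85, adjusted p = 0.0473). The water-fed values of Chil3, Ltf and Retnlg lay near background, which limits how well the size of each rise is known. Ly6g, the surface antigen used to stain mouse neutrophils, fell by 0.33 (adjusted p = 0.0173). Without fasted mice 2 and 4, 2 rose and 1 fell: Chil3 (2.07, adjusted p = 0.0139), Ltf (1.19, adjusted p = 0.0103) and Ly6g (-0.48, adjusted p = 0.000667) were still called, and Retnlg was not (0.72, adjusted p = 0.466). Over the 5 markers and these 9 genes, fasted mice 2 and 4 held the 2 highest values of 24 for 9 of 14. These mice were picked after values of genes in this count were seen, so the count carries no test.

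Genes of red cells and platelets moved in part with the same mice. Slc4a1, the anion exchanger of red cells, measured 276 and 265 in fasted mice 2 and 4 and 25.9 to 113 over the 18 fed mice, and Ppbp, a platelet chemokine, 99.8 and 72.8 in fasted mice 2 and 4 and 26.2 to 54.4 over the fed mice. Alas2, the haem synthesis enzyme of red cell precursors, fell in the fasted group (-0.81 ± 0.12, adjusted p = 6.96e-06). Over 4 red cell genes measured, out of 5 listed, none rose and 1 fell, and the mean deviation from the 24-mouse mean ran from -0.31 to 0.89 in fasted and -0.33 to 0.35 in water-fed livers. Over 5 platelet genes, 3 rose (Itga2b, Ppbp and Gp9), none fell, and it ran from -0.074 to 1.03 in fasted and -0.33 to -0.049 in water-fed livers. Without fasted mice 2 and 4, 1 platelet gene was called, Itga2b (1.47, adjusted p = 0.0162), while Ppbp (0.41, adjusted p = 0.0691) and Gp9 (0.37, adjusted p = 0.203) were not. The part of these cells in the neutrophil gene values was not tested.

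The lymphocyte markers gave few calls. None of the 3 measured T cell genes was called by limma, and 1 had an unadjusted p under 0.05. Cd3d, a chain of the T cell receptor complex, had the lowest p of them and measured 73.3, 87.6 and 104 in fasted livers, 78.1, 90.9 and 101 with fructose, 73.8, 99.2 and 103 with glucose and 86.0, 102 and 128 with water (-0.22 ± 0.10, adjusted p = 0.0854). Cd3e, another chain of that complex, gave -0.12 ± 0.098 and the co-receptor Cd4 0.14 ± 0.14. The Cd4 probe used read 6196 to 15755 over the 24 mice. Its second kept probe read 11.6 to 32.2 and gave -0.024, and which transcript each probe reads was not tested. The probes of Cd8a, the co-receptor of cytotoxic T cells, were well above background on 2 and 0 of 24 arrays.

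Among the B cell genes, Ms4a1, the CD20 antigen, fell. It measured 11.5, 15.9 and 27.5 in fasted livers, against 16.8, 22.4 and 28.7 with fructose, 12.1, 18.2 and 33.8 with glucose and 11.3, 32.7 and 41.4 with water (-0.77 ± 0.27, adjusted p = 0.025), close to background, and its second kept probe was at -0.035. The signal-transducing chains of the B cell receptor, Cd79a (0.16 ± 0.24) and Cd79b (-0.13 ± 0.16), were not called, and Cd79a was well above background on 11 of the 24 arrays. The call of Ms4a1 was lost in 7 of 34 alternative settings, among them without fasted mouse 2 (-0.67, adjusted p = 0.062) or 5 (-0.72, adjusted p = 0.0527) and without water mouse 1 (-0.65), 2 (-0.71) or 5 (-0.71), each left out singly.

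Of the cytotoxic cell genes, Nkg7 and Gzmb fell. Nkg7, a granule membrane protein, measured 71.1, 90.9 and 119 in fasted livers, against 97.9, 113 and 123 with fructose, 96.0, 116 and 146 with glucose and 108, 119 and 141 with water (-0.42 ± 0.11, adjusted p = 0.00496). Gzmb, the protease granzyme B, measured 9.33, 12.0 and 17.5 in fasted livers, against 12.2, 16.7 and 33.4 with fructose, 14.2, 21.1 and 39.9 with glucose and 14.4, 19.0 and 24.0 with water (-0.62 ± 0.25, adjusted p = 0.0455), near background and with overlapping groups, and its call was lost in 15 of 34 alternative settings, 12 of them with 1 mouse left out (adjusted p = 0.0514 to 0.1). Gzma, the protease granzyme A (-0.0064 ± 0.13), and Klrb1c, the NK1.1 antigen (0.21 ± 0.17), were not called.

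The wider lymphocyte lists split as well, where 20.7% of all genes were called higher and 21.9% lower. Of 12 other T cell genes, 2 rose, Il7r, the interleukin 7 receptor (0.92 ± 0.17), and the kinase gene Zap70 (0.86 ± 0.22), and 5 fell, Tcf7, a transcription factor of naive T cells (-1.10 ± 0.17), Cd8b1 (-0.68 ± 0.12), Thy1 (-0.40 ± 0.13), Cd3g (-0.39 ± 0.14) and Lat (-0.23 ± 0.090). Of 8 other B cell genes measured, out of 10, 2 rose, the plasma cell gene Mzb1 (0.75 ± 0.19) and Cd22 (0.25 ± 0.090), and 3 fell, the adaptor gene Bank1 (-0.91 ± 0.13), Fcer2a (-0.57 ± 0.18) and the complement receptor Cr2 (-0.44 ± 0.11). Of 9 other NK and cytotoxic genes measured, out of 12, none rose and 4 fell, the chemokine gene Xcl1 (-0.76 ± 0.27), the transcription factor gene Tbx21 (-0.62 ± 0.21), Cxcr6 (-0.37 ± 0.13) and Klrk1 (-0.33 ± 0.13). Prf1, perforin, was not called (-0.0088 ± 0.11).

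**Figure D4:**
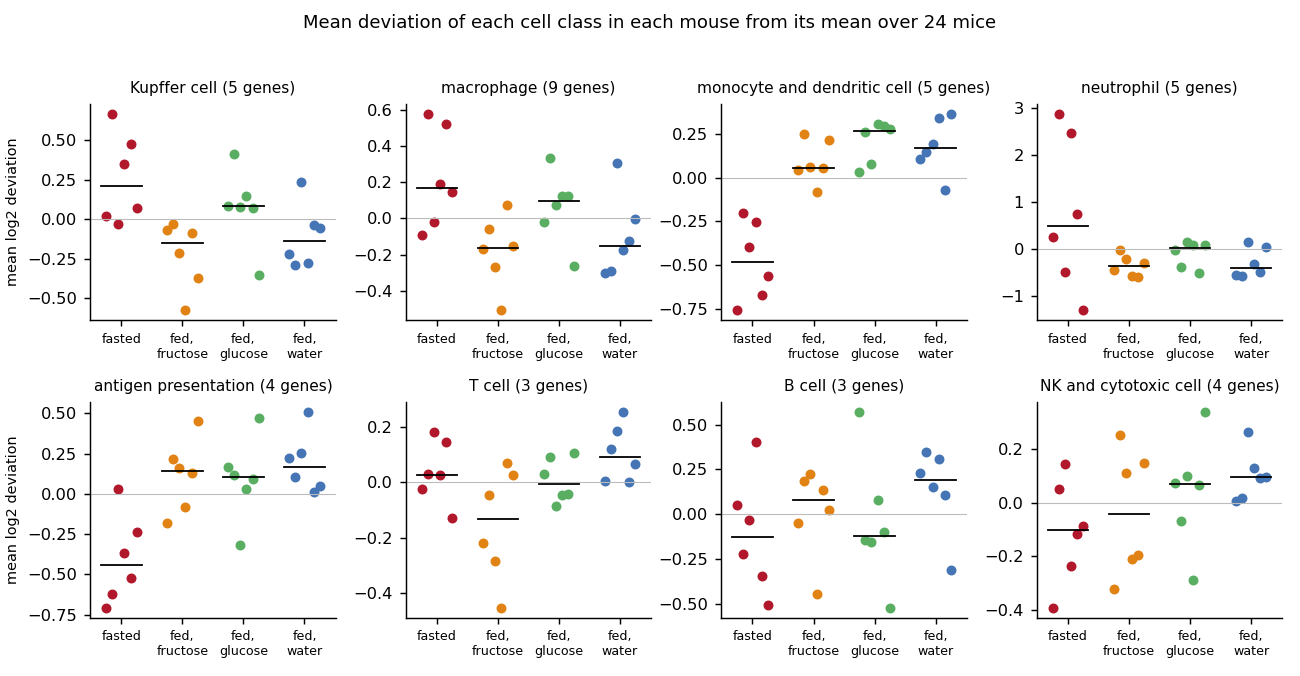
Mean log2 deviation of the measured markers of each cell class in each mouse from their mean over the 24 mice, for fasted, fructose, glucose and water groups, with bars at the group medians. For monocyte and dendritic cell genes all 6 fasted mice (-0.76 to -0.20) lie below the water group (-0.071 to 0.36), and for neutrophil genes the fasted mice spread from -1.31 to 2.88.

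Summed up per mouse as the mean deviation from the 24-mouse mean, the monocyte and dendritic cell genes ran from -0.76 to -0.20 in fasted and -0.071 to 0.36 in water-fed livers. That mean takes the brightest probe of each gene, and the second kept probes of Itgam (0.10) and Itgax (-0.28) were not called. The antigen presentation genes ran from -0.71 to 0.032 in fasted and 0.012 to 0.51 in water-fed livers. The Kupffer cell genes ran from -0.028 to 0.67 in fasted and -0.29 to 0.24 in water-fed livers. Of these 5 genes, Marco and Vsig4 were called higher, and Clec4f, Timd4 and Cd5l were not called. Genes of other liver cells moved too. The mean of 6 hepatocyte genes ran from 0.25 to 0.45 in fasted and -0.13 to 0.15 in water-fed livers. Of these 6, 3 had positive and 3 negative fitted differences (median 0.048), with 2 called higher (Tat and Cyp3a11) and 1 lower (Ttr). The mean of 7 stellate cell genes ran from -0.77 to -0.063 in fasted and -0.10 to 0.28 in water-fed livers. The part of the liver's other cells in the marker values was not tested.

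In each group 1 mouse was the highest for most markers of resident macrophages, and in all groups but water 1 mouse was the lowest for most. Over the 14 Kupffer cell and macrophage genes, fasted mouse 2 was the highest of its group for 11 and fasted mouse 1 the lowest for 10. With fructose, mouse 5 was the highest for 9 and mouse 4 the lowest for 13, with glucose mouse 2 was the highest for 12 and mouse 6 the lowest for 13, and with water mouse 3 was the highest for 13, while the lowest place was split over mouse 2 (6 genes), mouse 1 (5) and mouse 4 (3). Over all genes the mice that led held those places, in the order given, for 26.6%, 12.4%, 13.9%, 19.6%, 19.2%, 21% and 25%. These mice were picked after their values were seen, so the counts carry no test.

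Sugar in the drinking water called no marker. Fructose against water called 0 of 38 with limma, where 0.951% of all genes were called, and 3 markers had an unadjusted p under 0.05, where 16.2% of all genes did. Elane had 601, 769.7 and 858 with fructose, against 511, 568 and 647 with water, and 5 of the 6 fructose mice lay above every mouse on water (0.38 ± 0.097, adjusted p = 0.0578). Cd4 had 6196, 9963 and 11309 with fructose, against 11253, 12183 and 14247 with water (-0.46 ± 0.14, adjusted p = 0.112), and Marco 1525, 1860.2 and 2306 with fructose, against 1642, 2477 and 3409 with water (-0.45 ± 0.20, adjusted p = 0.278). The second, far dimmer kept probe of Cd4 gave -0.28 (limma adjusted p = 0.457). Elane was called under normexp background correction, under a strict filter, with the authors' deposited log2 values and with some single mice left out.

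Glucose against water also called 0 of 38 with limma, where 0.901% of all genes were called, and 2 markers had an unadjusted p under 0.05, where 11.6% of all genes did. These were Elane (0.33 ± 0.097, adjusted p = 0.117), with 640.1, 683 and 872 with glucose against 511, 568 and 647 with water, and Timd4 (0.28 ± 0.14, adjusted p = 0.422), with 115, 155 and 174 with glucose against 107, 123 and 147 with water. For H2-Ab1 the 95% interval of the log2 difference was -0.42 to 0.16 for glucose over water and -0.41 to 0.17 for fructose over water. The 2 sugar comparisons and the fasting comparison share the water-fed mice.

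Fructose against glucose called 0 genes of 23966, 0%, and none of the markers with limma, and 8 of 38 markers had an unadjusted p under 0.05, where 7.84% of all genes did. The 8 were Marco (-0.58 ± 0.20, adjusted p = 0.482), Adgre1 (-0.33 ± 0.12), Timd4 (-0.33 ± 0.14), Cd4 (-0.33 ± 0.14), Csf1r (-0.27 ± 0.12), Cd163 (-0.29 ± 0.13), Lyz2 (-0.29 ± 0.14) and C1qc (-0.22 ± 0.10), all at lower fitted levels with fructose, with adjusted p of 0.482 to 0.625. All but Cd4 are Kupffer cell or macrophage genes. The second kept probe of Cd4 gave -0.18 (limma adjusted p = 0.824). Marco had 1525, 1860.2 and 2306 with fructose, against 2089, 2669 and 4399 with glucose, and the lowest glucose mouse lay below the 3 highest fructose mice.

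**Figure D5:**
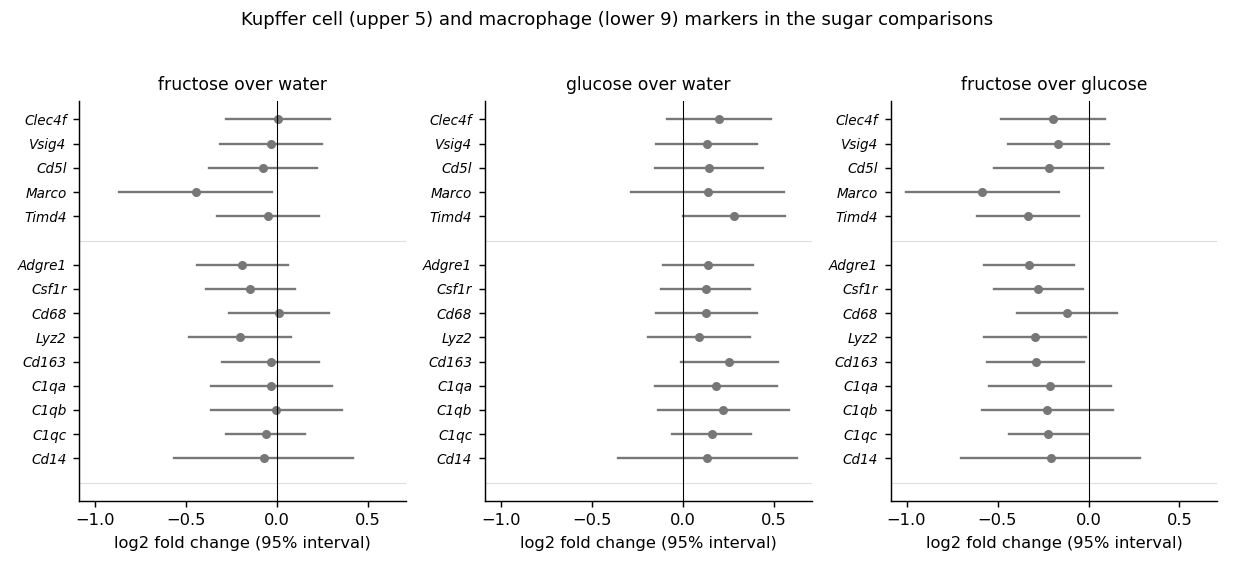
Log2 fold change with 95% intervals of the limma fit for the 14 Kupffer cell and macrophage genes in 3 comparisons of the fed groups (6 mice each). No gene was called; all 14 points lie left of 0 for fructose over glucose and right of 0 for glucose over water, and those for fructose over water lie on both sides.

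The fitted differences of the 14 Kupffer cell and macrophage genes were all negative between fructose and glucose, from -0.58 to -0.12 with a median of -0.22, where the median over all genes was -0.0059. Between glucose and water all 14 were positive, with a median of 0.14, and between fructose and water 2 were positive and 12 negative, with a median of -0.054. The same mice were high or low for most of these genes, so 14 equal signs are not 14 independent observations. Leaving out any 1 mouse kept all 14 negative between fructose and glucose, with medians of -0.31 to -0.16. It also kept all 14 positive between glucose and water, with medians of 0.096 to 0.22, the higher values being those without glucose mouse 6 or water mouse 3. Between fructose and water the medians ran from -0.10 to 0.014, and 9 genes were positive without water mouse 3 and 8 without fructose mouse 4.

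The other immune gene lists also had no call in any comparison of the fed groups. The 22 other Kupffer cell and macrophage genes had medians of -0.029 between fructose and water, 0.090 between glucose and water and -0.085 between fructose and glucose, with lowest adjusted p of 0.12, 0.274 and 0.528. The 9 other granule genes had medians of -0.088, 0.012 and -0.16 in the same comparisons, and the 12 other antigen presentation genes -0.097, -0.077 and -0.064. One-sided signs were not limited to macrophage genes. Between fructose and glucose the fitted differences were negative for all 9 other granule genes and for all 9 cytokine and chemokine genes measured (median -0.36). They were also negative for 13 of 14 genes shared by several kinds of leukocyte (median -0.14).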

How the data were processed

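Liver RNA of 24 mice was hybridised to 1-colour (Cy3) Agilent mouse arrays, 1 per mouse, from 200 ng of total RNA. Per the file headers, the authors' scanner files came from Agilent Feature Extraction 10.10.1.1, and their processed intensity had been background-subtracted and detrended within each array. The authors also deposited a table of log2 values for 35967 probes, whose normalization is not given in the sources used here; it tracked the log2 median intensity of each array (correlation 0.999853 or more) and served as an alternative. The submitters' processing notes also name limma.

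The processed intensity was taken to log2 and the 75th percentile of each array subtracted. Probes well above background on fewer than 6 arrays were left out, and the probe with the highest mean stood for a gene. Groups were compared in 1 fit over the 24 arrays with limma 3.58.1 in R 4.3.3, with p adjusted by Benjamini-Hochberg over 23966 genes. Positions of probes come from the maker's annotation (mm9). No spot of a marker had an outlier flag. Arrays give no counts, so their number limits the precision.

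The markers and all gene lists were chosen with earlier results of these data known. Values are given for every marker called and for the marker of each class with the lowest p in fasting, and from each further list for up to 3 called genes with the largest change; genes named beyond these were chosen after their values were seen, and 1 called gene is not reported here. Replicate numbers did not pair the mice: same-numbered mice of different groups had deviations that correlated at -0.17 to 0.22, above 0.1 in 9 of 36 pairs. Alternatives were normexp background correction, quantile and median scaling, no filter and a strict one, the mean of a gene's probes, the deposited log2 table, slide or replicate number as a block, fits of only the groups compared, and each array left out.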

Additional observations from a re-analysis of the deposited data

Results flagged for a closer look

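Over 152 sets of 6 mice (38 markers in 4 groups), 10 held a mouse that lay far from the others, with a gap to its nearest neighbour above the 95% limit of Dixon's test. Chance marks about 1 in 20 such sets. Of the 10, 3 belonged to glucose mouse 6, which had the lowest Cd5l of its group (normalised intensity 8202, next mouse 12495), the lowest Timd4 (115, next 151) and the highest Ccr2 (34.6, next 25.5). With fasting, mouse 4 had the highest Cd79b (212, next 142). With fructose, mouse 4 had the lowest Irf8 (461, next 580.1), and with glucose, mouse 1 had the lowest Irf8 (507, next 610.3). With water, mouse 3 had the highest Cd14 (311, next 233), mouse 5 the lowest Itgam (1727, next 2173), mouse 4 the highest H2-Ab1 (4708, next 3827) and mouse 6 the lowest Ms4a1 (11.3, next 26.1).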

How the results depend on the processing

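Of the 15 markers called in fasting, 12 kept their call and direction in each of the 34 planned settings that gave a value, and Camp, Ms4a1 and Gzmb lost theirs in some, with no change of sign. No setting took the dimmer probe of a gene alone. Itgam and Itgax are among the 12, and their second kept probes were not called (0.10 and -0.28). Settings with all 24 mice gave 4 to 7 markers higher and 7 to 10 lower, against 5 and 10. With the replicate number as a replicate block there were 5 and 10, with Mpo (adjusted p = 0.0412, limma) among them and Camp not (0.054). Leaving out 1 mouse gave 4 to 8 higher and 8 to 10 lower; without fasted mouse 6, S100a8 (2.43, adjusted p = 0.00446), S100a9 (2.28, 0.00739) and Mpo (1.26, 0.0159) were also called. Without fasted mice 2 and 4, chosen after seeing the data, 4 were higher and 11 lower, Ly6c2 (-0.64, adjusted p = 0.00961) being added. Leaving out 1 mouse lost Camp in 20 of 24 settings. It lost Gzmb without fasted mouse 1, 3, 4 or 5, fructose mouse 3, glucose mouse 1, 2 or 3, or water mouse 1, 3, 5 or 6, and Ms4a1 without fasted mouse 2 or 5 or water mouse 1, 2 or 5. The strict filter left no value for Ccr2, Ms4a1 and Gzmb. Normexp, with its offset of 50, gave Ccr2 -0.24, and the mean of probes gave Itgam -0.61. Of fructose over water, 1 marker was called higher (Elane) in place of 0 under normexp (adjusted p = 0.0354), the strict filter (0.0448), the deposited table (0.0381) and without fasted mice 2 and 4 (0.0438); leaving out 1 mouse gave 0 to 1, with 1 without fasted mouse 2, fructose mouse 4 or 5, glucose mouse 1 or water mouse 3 (0.022 to 0.0474). The other counts of markers called between fed groups were 0 in every setting run. Over all genes, fructose against water called 228, with 581 under normexp, 472 without fasted mice 2 and 4, 367 in the deposited table, 83 with no filter, 82 under median scaling, 69 with only the 2 groups fitted, and 65 to 497 with 1 mouse left out. Glucose against water called 216, with 334 with only the 2 groups fitted, 131 with no filter, 92 under median scaling, and 113 to 345 with 1 mouse left out. The cause was not tested. Signal near background limits Ccr2, Ms4a1, Gzmb and Cd79a, whose probes were not well above background on every array.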

Other observations

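Genes of inflammatory signals changed in fasting too; levels are the lowest, median and highest normalised intensity of a group, and differences are log2 fold changes of fasted over water-fed livers with their standard error. Of 9 cytokine and chemokine genes measured, out of 13 listed, 6 fell and 2 rose, where 21.9% of all genes were called lower and 20.7% higher. Ccl2, the chemokine that draws in monocytes through Ccr2, measured 14.1, 19.1 and 34.6 in fasted livers, against 39.5, 69.3 and 83.3 with fructose, 72.2, 75.2 and 121 with glucose and 53.6, 118 and 185 with water (-2.34 ± 0.26, adjusted p = 1.3e-07 with limma). Cxcl1, which draws in neutrophils in the mouse, measured 116, 246 and 352 in fasted livers, against 722, 922 and 3324 with water (-2.32 ± 0.33, adjusted p = 4.33e-06). Il1rn, the interleukin 1 receptor antagonist, rose, at 44.3, 65.1 and 76.8 in fasted livers, against 4.35, 13.7 and 21.8 with water (2.31 ± 0.35, adjusted p = 1.16e-05). Its water-fed values lay near background, which limits how well the size of the rise is known. Cxcl9 (-2.0 ± 0.19), Ccl4 (-1.18 ± 0.31), Tnf (-0.76 ± 0.20) and Il18 (-0.50 ± 0.087) fell and Cxcl13 (1.09 ± 0.22) rose. Hepatocytes and other liver cells can also make several of these, and the cell behind each value was not tested.

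Genes shared by several kinds of leukocyte gave a mixed picture. Of 14, 4 fell, the GTPase gene Rac2 (-0.47 ± 0.12), Cd52 (-0.39 ± 0.10), Laptm5 (-0.33 ± 0.12) and Coro1a (-0.29 ± 0.097), and 2 rose, the phosphatase gene Ptpn6 (0.45 ± 0.089) and Vav1 (0.37 ± 0.11). Over all genes, 21.9% were called lower and 20.7% higher. The common leukocyte antigen Ptprc was not called (-0.058 ± 0.096, adjusted p = 0.681), and the median of the 14 was -0.06, against 0.01 over all genes. Among the liver's own cells, Col3a1 (-1.86 ± 0.23), Lrat (-1.27 ± 0.16) and Col1a1 (-1.03 ± 0.31), genes of stellate cells, fell, and Dcn rose (0.37 ± 0.091). Lyve1, a hyaluronan receptor of sinusoidal endothelium, rose (1.31 ± 0.18), as did Pecam1 (0.34 ± 0.11) and Stab2 (0.17 ± 0.064), while Dnase1l3 (-0.69 ± 0.099), the Fc receptor gene Fcgr2b (-0.49 ± 0.16) and Kdr (-0.47 ± 0.12) fell. Of the bile duct genes, Spp1 (-0.89 ± 0.21), Krt19 (-0.80 ± 0.24) and Krt7 (-0.58 ± 0.20) fell, and of the hepatocyte genes Tat (1.27 ± 0.19) and Cyp3a11 (0.81 ± 0.15) rose and Ttr fell (-0.25 ± 0.042). In sugar comparisons with water, Cyp3a11 with glucose (-0.64 ± 0.15, adjusted p = 0.0386) and Apoa1 with fructose (-0.38 ± 0.079, adjusted p = 0.0254) fell, and no other gene of the lists in these paragraphs was called.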
